A study of Mus musculus with 6 samples.

Results

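Isolated promoters are here promoters with no other kept promoter nearby. Of the 19162 promoters kept in these data, 1181 (6.16%) were of this kind. A promoter is here a deposited peak of transcription start sites, not checked against a gene or sequence. It was kept when it reached 1 CPM in 3 or more of the 6 libraries. CPM is a count per 1000000 tags of a library, and tags of a library are throughout those within deposited peaks. The isolated ones were chosen by distance: no other kept promoter, on either strand, lay within 100000 bp to the left or to the right. The members were thus selected on measured levels, their own and those of their neighbours. Level and distance are given below as descriptions, with no test.

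The libraries come from cap analysis of gene expression (CAGE), a method that reads RNA from its cap, so that piled-up tags mark where transcription starts. Ba/F3, the cell line used, is a mouse pro-B line that can grow without its cytokine once an active kinase is introduced. Every one of the 6 libraries is from cells with FLT3-ITD, a form of the receptor tyrosine kinase FLT3 in which part of the receptor is repeated in tandem. By their titles, 3 carry FLT3-ITD alone and 3 carry D835Y, a substitution in the activation loop of the kinase, in addition. These are called the ITD group and the double mutant. The genotype label steps its residue number from sample to sample, so the titles set the groups. Cells without FLT3-ITD were not analysed here. Whether a line was 1 clone, or the replicates separate cultures, is not given in the labels, so p-values refer only to the variation among these samples, and that may be technical.

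As background, promoters of mammals are commonly divided by how far their start sites spread. Sharp promoters start within a few bases and often have a TATA box, and many serve genes with restricted expression. Broad promoters use many start sites, tend to lie in CpG islands and often serve genes active in most cells. Active genes tend to cluster, and long stretches with little transcription lie between the clusters.

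The files give peaks by position and do not pair them with genes. No genome of their build (mm9 is the mouse build in the submitters' processing notes) was used here, so promoters are given by chromosome, strand, start and end as deposited, without gene name or sequence, and the markers of pro-B cells were not checked. Width is end minus start, and its smallest value was 1 bp. The libraries held 5884258 to 13977941 tags within deposited peaks, and 1 tag was worth 0.0715 to 0.170 CPM. Where a library has no tag, up to 3 tags are allowed for, or 0.215 to 0.510 CPM, and such limits cover counting error only. How the authors treated tags that match several genome positions is not stated in any label or file header used here. No isolated promoter shared its 6 tag counts with another kept promoter (0 of 1181), and no other kept promoter did so either. This count cannot show how such tags were treated, since tags placed at only 1 of their positions would leave no equal counts.

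The surroundings of isolated promoters held little else. Their median distance to the nearest kept promoter was 192457 bp, against 178 bp over all kept promoters. At 651 of the 1181 (55.1%) the next kept promoter on at least 1 side was isolated too, and the longest unbroken run held 7. Within 100000 bp, the deposited list held a median of 9 further peaks that were below the level filter, and a median of 2 of these had any tag. At 375 isolated promoters (31.8%) none had a tag, and at 100 (8.47%) there was no further peak. The summed level of the further peaks had a median of 0.155 CPM and a maximum of 3.84 CPM, and it was above that of the isolated promoter itself at 27.

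Broad and sharp isolated promoters had different close surroundings. A further peak with tags lay within 1000 bp of 181 of the 278 that were at least 60 bp wide (65.1%). The same was true of 24 of the 221 that were at most 10 bp wide (10.9%).

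The distance limit has promoters close to it on either side. Just inside it, at 100070 bp, was the plus-strand promoter 109857963 to 109858030 of chromosome 2, with 18.8 ± 1.85 CPM in the ITD group and 20.5 ± 4.21 CPM in the double mutant (SD, 3 libraries each). Just outside it, at 99914 bp, was the one at 51928415 to 51928426 of the same strand and chromosome, with 1.68 ± 0.917 and 1.73 ± 0.431 CPM.

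Isolated promoters had a higher median level than the rest, a quantity the rule used. It was 14.5 CPM (quartiles 3.65 and 42.8) for isolated promoters and 5.54 CPM (quartiles 2.06 and 21.7) for the other 17981. Of promoters under 2 CPM 3.74% were isolated, of those at 100 CPM and over 10.2%, and of those at 500 CPM and over 16.4% (48 of 292). All 1181 together held 10.5% to 13% of the tags of a library, and the 48 alone held 6.63% to 9.07%.

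Their median width was 33 bp, beside 34 bp for the others. Averaged over classes of level, weighted to the levels of isolated promoters, the class medians gave 33.1 and 39.1 bp. From 5 to 20 CPM the medians were 44 and 41 bp, the only class where isolated promoters were wider. At 100 CPM and over they were 11 and 37 bp, and under 2 CPM 22 and 23 bp. The share of sharp promoters was larger. Widths of at most 10 bp made up 18.7% of isolated and 6.91% of other promoters, and with the others weighted to the same levels 6.18%. The gap was present in each class of level. It was 20.1% against 10.3% under 2 CPM, 7.88% against 4.58% from 5 to 20 CPM, and 48.6% against 10.7% at 100 CPM and over. Widths of at least 60 bp made up 23.5% of isolated and 21.1% of other promoters.

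Distance and width went together among the isolated promoters themselves. Of the 621 whose nearest neighbour lay at 100000 to 200000 bp, 14.3% were at most 10 bp wide, and of the 77 beyond 1000000 bp 36.4% were. The median width was 36 bp in the first class and 22 bp in the second.

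**Figure D1:**
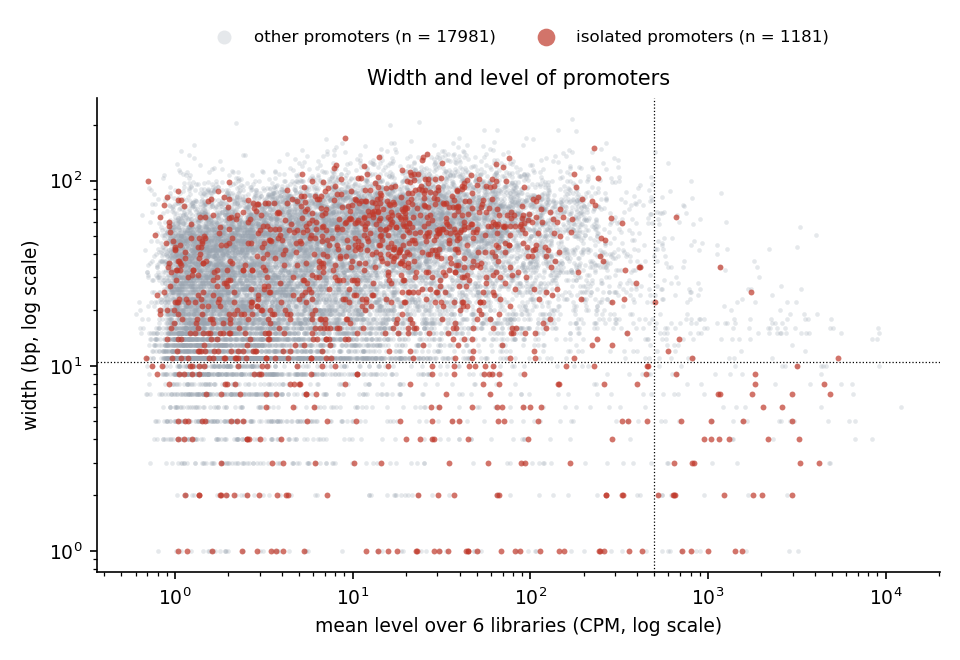
Width in bp against mean level over the 6 libraries in CPM, both on log scales, with 1 point per promoter. The isolated promoters (n = 1181) lie within the range of the other 17981, and 40 of their 48 members at 500 CPM and over are at most 10 bp wide.

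The most active isolated promoters were almost all sharp. The class at 500 CPM and over, set after the values were seen, holds 48 isolated promoters with a median width of 4.5 bp, of which 40 (83.3%) were at most 10 bp wide. The 244 other promoters of that class had a median width of 16 bp, and 29.9% were so sharp. Of the 113 promoters in that class with such a width, 40 (35.4%) were isolated. Within 100000 bp of the 48, the median summed level of further peaks was 0 CPM. Whether tags that match several genome positions add to these narrow peaks was not tested.

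The most active of all lay on the plus strand of chromosome 2 at 40411202 to 40411213, 11 bp wide, with kept neighbours 1329350 and 1433156 bp away. It had 6552, 5678 and 4411 CPM in the ITD group and 4933, 5455 and 5426 CPM in the double mutant, and ranked 15 among all kept promoters. The highest and the lowest library were both in the ITD group, and the difference, double mutant minus ITD on the log2(CPM + 1) scale used throughout, was -0.056 (SE 0.14, limma adjusted p = 0.80). At 105389768 to 105389776 of chromosome 8, minus strand, the promoter lay 5436668 bp from the kept promoter on its left. It had 4931, 4740.3 and 3961 CPM in the ITD group and 4454, 4471 and 4389 CPM in the double mutant, whose libraries fell within the range of the ITD group.

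A promoter 3 bp wide on the minus strand of chromosome 17, at 82810237 to 82810240, had 5075, 5225 and 4055 CPM, then 4297, 2701 and 3861 CPM in the double mutant (limma adjusted p = 0.091). The groups overlapped there. The minus-strand peak of chromosome 19, 28817068 to 28817078, had 3071 ± 87.5 and 3241 ± 474 CPM (SD, 3 libraries each), again with overlap. The one on chromosome 18 (minus strand, 20841502 to 20841507) had 2658 ± 346 and 3278 ± 84.8 CPM, where the groups did not overlap but the difference did not pass the test (limma adjusted p = 0.064).

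The remaining members among the 8 most active passed the test with more tags in the double mutant. The promoter of chromosome 10, minus strand, 29419185 to 29419188, rose from 2761, 3055 and 2587 CPM to 4006, 3480.2 and 3876 CPM, a difference of 0.44 (SE 0.11, limma adjusted p = 0.011). It did not pass without double-mutant replicate 1 (limma adjusted p = 0.058). The promoter of chromosome 4, minus strand, 3762742 to 3762749, had 4336 ± 413 and 5444 ± 321 CPM (limma adjusted p = 0.043), and that of chromosome 16, minus strand, 20822749 to 20822753, had 2868 ± 236 and 3665 ± 461 CPM (limma adjusted p = 0.0497). Both calls ended with TMM scaling, which corrects for library composition (limma adjusted p = 0.12 and 0.15), and without any 1 library other than double-mutant replicate 2 (0.067 to 0.12 and 0.085 to 0.17).

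ITD replicate 3 stood apart at the most active isolated promoters. It was the lowest library of its group at 41 of the 48, with a median of 0.792 of each promoter's mean over the 6 libraries. ITD replicates 1 and 2 were at 0.997 and 0.996, and the double-mutant libraries at 1.10, 0.969 and 1.12. At the 244 other promoters of that class ITD replicate 3 was at 0.979 and lowest at 98, and at the 73 of these with a width of at most 10 bp it was at 0.966 and lowest at 40. In sum the 48 held 8.33%, 8.22% and 6.63% of the tags in the ITD group and 8.97%, 8.04% and 9.07% in the double mutant, so that ITD replicates 1 and 2 overlapped the double mutant and ITD replicate 3 lay below all other libraries. The isolated promoters under 500 CPM held 3.90% to 4.23% in every library.

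**Figure D2:**
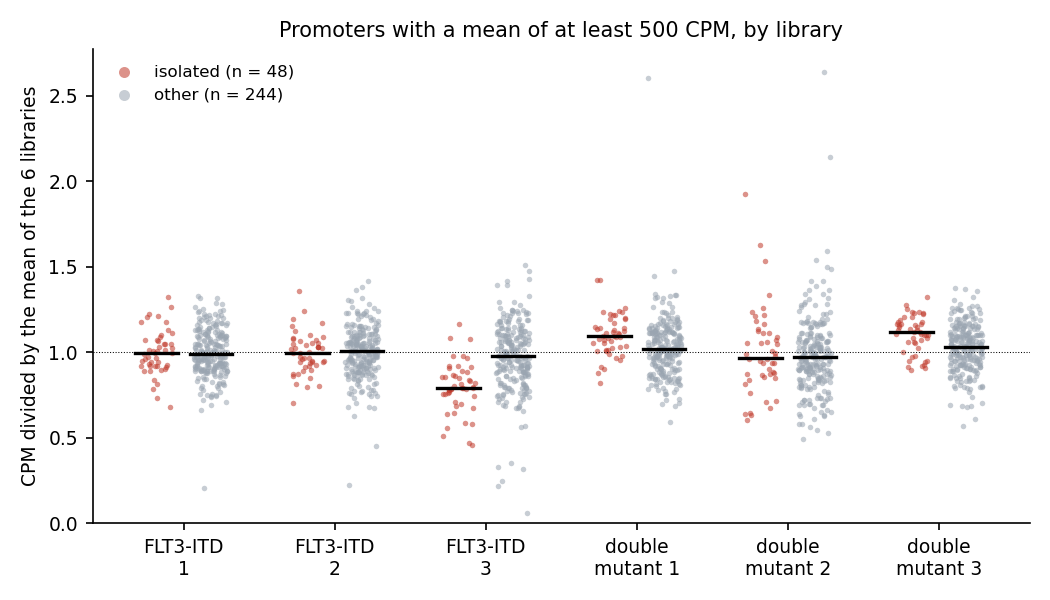
Level of each promoter of 500 CPM and over in each library, divided by its own mean over the 6 libraries, for isolated (n = 48) and other promoters (n = 244), with medians marked. In ITD replicate 3 the median of the isolated ones is 0.792 and that of the others 0.979.

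The number of the 48 that differed between the groups varied with the libraries used. With all libraries 11 rose in the double mutant and 0 fell (limma adjusted p under 0.05), while over all kept promoters 14.1% rose and 10.4% fell. Without ITD replicate 3 the counts were 4 and 1, and without double-mutant replicate 2, which was the lowest of its group at 33 of the 48, they were 17 and 0. Leaving out ITD replicate 1 or 2 gave 5 and 6 rises with 0 falls, and leaving out double-mutant replicate 1 or 3 gave 4 and 5 rises with 2 and 0 falls. TMM scaling gave 5 rises, edgeR 4 and DESeq2 5, the last with 1 fall, and fitting without a filter on low values gave 14 and 2. The 244 other promoters of that class had 35 rises and 39 falls with all libraries, 27 and 27 without ITD replicate 3 and 51 and 48 without double-mutant replicate 2. With TMM scaling they had 21 and 40, with edgeR 22 and 39, with DESeq2 25 and 44, and without the filter 45 and 46. The median difference was 0.18 with all libraries and 0.11 without ITD replicate 3. The part of this library in the result was not tested beyond these counts.

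The clearest of the 11 rises, named after their values were seen, kept the groups well apart. At 123969356 to 123969361 of chromosome 7, minus strand, the promoter rose from 518, 494 and 484 CPM to 874, 1083 and 781 CPM, a difference of 0.86 (SE 0.12, limma adjusted p = 0.00033). The peak of chromosome 11, plus strand, 76414781 to 76414785, rose from 904, 937 and 815 CPM to 1399.9, 1399 and 1439 CPM, by 0.68. The one on chromosome 1 (minus strand, 29542779 to 29542784) rose from 1284, 1353 and 1249 CPM to 1948, 1671 and 1952 CPM, by 0.52. At each, every double-mutant library was above every ITD library, and each was 4 or 5 bp wide.

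Of the 140 isolated promoters at 100 CPM and over, 2 (1.43%) passed the test with a change of at least 1 on the log2 scale. Among the 1238 other promoters of that level 21 did (1.70%), a similar share. The 2 isolated ones are named for their size of change. At 180567027 to 180567035 of chromosome 1, plus strand, the promoter fell from 404, 651 and 659.7 CPM to 283, 167 and 234 CPM, a difference of -1.32 (SE 0.25, limma adjusted p = 0.0096). The minus-strand peak of chromosome 19, 15268722 to 15268724, rose from 238, 208 and 205 CPM to 433, 554 and 342 CPM, by 1.0 (SE 0.15, limma adjusted p = 0.00069). The groups did not overlap at either, and the widths were 8 and 2 bp.

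Over all members, 311 of 1181 isolated promoters (26.3%) differed between the groups (limma, adjusted p under 0.05), near the 24.4% of all kept promoters. Of these, 167 were higher in the double mutant and 144 lower, and at 511 (43.3%) the groups did not overlap, beside 41.8% of all kept promoters (24.2% higher and 17.6% lower). TMM scaling turned the balance to 146 higher and 178 lower, where all kept promoters had 12.8% in each direction. With edgeR the counts were 142 and 173 (24.6% of all kept promoters called, 12.3% higher and 12.2% lower), and with DESeq2 116 and 151 (8.88% and 9.58%). The median difference of isolated promoters was 0.035 with the deposited scaling and -0.015 with TMM scaling, so neither direction prevailed under both. Of the 833 members with a mean of at least 5 CPM, fitted among promoters of that level only, 212 were called, beside 28.4% of all promoters in that fit.

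Changes of at least 1 on the log2 scale that passed the test were found at 106 isolated promoters (8.98%), 46 higher and 60 lower. The share was 5.57% over all kept promoters and 4.82% among others weighted to the same levels. Among the other promoters 566 rose and 396 fell by that much, the opposite balance of directions. That contrast was not tested, and it is given for the deposited scaling only. A promoter that reaches 1 CPM in 1 group only had to differ in order to be kept at a low level. There were 63 of these among isolated promoters (5.33%, 30 in the double mutant and 33 in the ITD group) and 695 among the others (3.87%). Of the 106 strong changes, 20 were at those 30 and 26 at those 33, and the balance of directions above includes them. Where both groups reached 1 CPM, 22.6% of isolated and 22.1% of other promoters were called. With a change of at least 1 these shares were 5.37% and 3.87%.

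By level, the shares called were 31.4% of isolated and 17.0% of other promoters under 2 CPM, where 26.0% and 13.9% had passed the level filter through 1 group. Without those, 10.4% of isolated and 7.39% of other promoters under 2 CPM were called. From 2 to 5 CPM the shares were 26.3% and 22.6%. From 5 to 20 CPM they were 25.8% and 27.7%, and from 20 to 100 CPM 27.3% and 28.5%. At 100 CPM and over they were 19.3% (20 higher and 7 lower of 140) and 31.1% (188 higher and 197 lower of 1238). The median SD within groups in that class was 0.176 (log2) for isolated and 0.134 for other promoters, and the median size of the difference 0.21 and 0.23. From 5 to 20 CPM the SDs were 0.190 and 0.194. The classes of level were not matched on width. Among promoters at most 10 bp wide at 100 CPM and over, 25% of 68 isolated and 28.0% of 132 other promoters were called. The differences in shares were not tested.

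**Figure D3:**
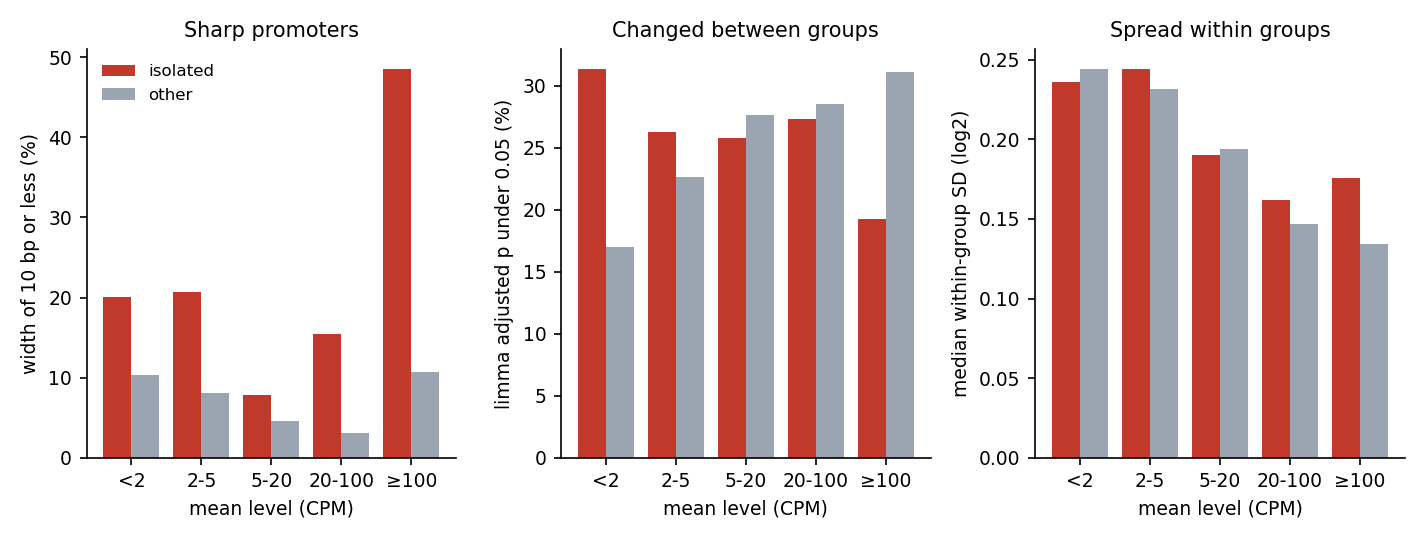
Isolated and other promoters in 5 classes of mean level in CPM, with the share at most 10 bp wide, the share that differed between the groups (limma, adjusted p under 0.05) and the median SD within groups on the log2(CPM + 1) scale. At 100 CPM and over, the isolated promoters have 48.6% sharp members and 19.3% called, against 10.7% and 31.1% of the others.

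Several of the 8 largest rises began from few or no tags. The one on chromosome 7 (minus strand, 140315536 to 140315559) had no tag in any ITD library and 10.7, 14.3 and 10.5 CPM in the double mutant. Its double-mutant mean was 108.7 times 0.109 CPM, the worth of 3 tags in the pooled ITD libraries. At 31038353 to 31038362 of chromosome 19, plus strand, the promoter had 0, 0 and 0.175 CPM and 13.7, 9.94 and 11.3 CPM. It rests on 2 and 416 pooled tags. Promoters such as these, under 1 CPM in every library of one group, passed the level filter through the other group alone and had to differ, so their values here and among the falls are descriptions.

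Broader promoters were among the largest rises as well. The minus-strand peak of chromosome 2, 84316882 to 84316945, 63 bp wide, rose from 0.683, 0.510 and 0.351 CPM to 10.7, 9.37 and 9.49 CPM. The one on chromosome 18 (minus strand, 25645471 to 25645551), 80 bp wide, rose from 2.93, 1.70 and 2.81 CPM to 16.1, 23.0 and 15.6 CPM. Neither had overlapping groups, and the differences were 2.84 and 2.47. Next to the promoter of chromosome 2, the kept promoter 173891 bp to its right went the other way, by -0.54, and passed the test. The kept promoter to its left changed by 0.43 and did not pass.

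The most active of these 8 was a sharp promoter on the plus strand of chromosome 12 at 105474449 to 105474455. It rose from 13.7, 12.1 and 18.1 CPM to 77.6, 80.3 and 78.4 CPM, a difference of 2.37 (SE 0.14, limma adjusted p = 1.6e-07). The kept promoters next to it, 792566 and 515655 bp away, rose too, by 1.92 and 0.60. Of the others, the minus-strand promoter 66633236 to 66633255 of chromosome 15 went from 1 pooled tag to 153, and that of chromosome 7 at 105233983 to 105234029 from 0 to 146.

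At the last of the 8, on the plus strand of chromosome 19 at 4510536 to 4510552, ITD replicate 3 differed from its group. The values were 0, 0 and 2.90 CPM, then 5.29, 7.73 and 7.32 CPM in the double mutant, a difference of 2.29 (SE 0.58, limma adjusted p = 0.040). The call ended with edgeR (adjusted p = 0.16), with DESeq2 (adjusted p = 0.41) and, in limma fits, with any 1 library other than ITD replicate 3 left out (adjusted p 0.083 to 0.14).

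Most of the 8 largest falls ended under 1 CPM. At 91201563 to 91201577 of chromosome 5, plus strand, the promoter fell from 9.46, 13.8 and 14.4 CPM to 0.168, 0 and 0.0989 CPM, or from 342 to 3 pooled tags. The kept promoter 265872 bp to its left changed by -1.72 and passed the test. The peak of chromosome 4, plus strand, 146927366 to 146927385, fell from 7.31, 8.84 and 8.86 CPM to 0.420, 0 and 0.0989 CPM. Both of its kept neighbours, 1473365 and 256526 bp away, fell as well, with differences of -0.99 and -1.36.

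The most active promoter among the 8 largest falls lay on the plus strand of chromosome 19 at 9681304 to 9681326. It fell from 101, 96.2 and 88.5 CPM to 13.8, 10.8 and 13.4 CPM, a difference of -2.82 (SE 0.13, limma adjusted p = 2.4e-08). The kept promoter 292554 bp to its right went the other way, by 0.54, and passed the test. The kept promoter to its left changed by -0.56 and did not pass. On this chromosome 12 of 32 isolated promoters rose and 2 fell, as did 351 and 19 of 763 others.

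Other falls were of similar size. The plus-strand promoter 92174796 to 92174814 of chromosome 15 went from 8.35 ± 1.36 to 0.492 ± 0.348 CPM (SD, 3 libraries each). The minus-strand promoter 39267947 to 39267996 of chromosome 5 went from 7.23 ± 0.527 to 0.407 ± 0.342 CPM, and that of chromosome 10 at 31329444 to 31329511 from 7.23 ± 0.671 to 0.50 ± 0.50 CPM. Each had 14 or 17 pooled tags left in the double mutant. The one on chromosome 3 (minus strand, 70611169 to 70611189) had unequal ITD libraries, with 10.2, 4.42 and 3.07 CPM, and 0.336, 0.215 and 0.0989 CPM in the double mutant.

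At 59261162 to 59261242 of chromosome 7, minus strand, the promoter fell from 12.0, 10.7 and 10.3 CPM to 3.36, 0 and 1.68 CPM, a difference of -2.40 (SE 0.54, limma adjusted p = 0.028). The double-mutant libraries were unequal, and the call ended with edgeR (adjusted p = 0.091), with DESeq2 (adjusted p = 0.19) and without any 1 ITD library or double-mutant replicate 3 (limma adjusted p 0.079 to 0.087).

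Double-mutant replicate 2 was the lowest of its group at most strong falls. This held for 40 of the 60 isolated promoters that fell by at least 1 (66.7%, with 4 ties), and for 256 of 396 other promoters with such a fall (64.6%, with 21 ties). Without this library 375 isolated promoters were called in place of 311, and over all kept promoters 27.2% in place of 24.4%.

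**Figure D4:**
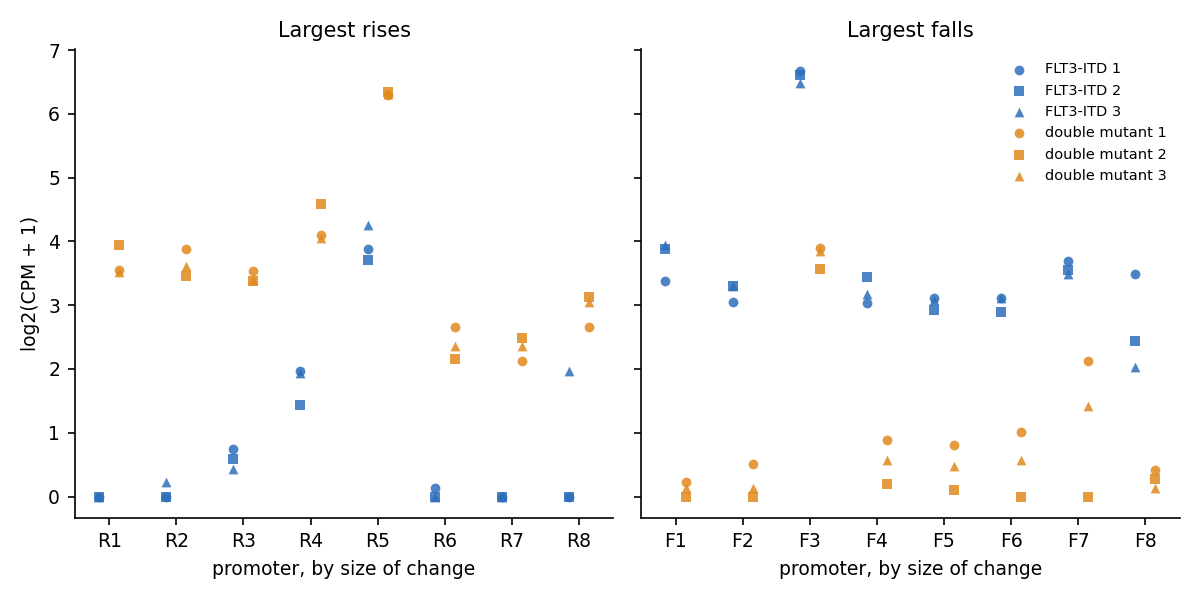
Level on the log2(CPM + 1) scale of the 8 isolated promoters with the largest rise (R1 to R8) and the 8 with the largest fall (F1 to F8), with 1 point per library, coloured by group and shaped by replicate. The groups stand apart at each, as the rule for naming them required, and double-mutant replicate 2 is lowest of its group at 7 of the 8 falls.

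Tags in 1 group alone were found at 5 isolated promoters. The rule asked for at least 1 CPM in each library of one group and no tag in the other, which 3 met in the double mutant and 2 in the ITD group, beside 37 and 6 of all kept promoters. The 2 on chromosome 7 have been given above. The third, on the plus strand of chromosome 14 at 54756415 to 54756425, had 1.34, 1.65 and 1.48 CPM in the double mutant. Those of the ITD group were on the plus strand of chromosome 5 at 22608207 to 22608231, with 1.56, 1.36 and 1.84 CPM, and of chromosome 9 at 60713920 to 60713971, with 2.05, 1.36 and 1.23 CPM. They rest on 54, 45 and 43 pooled tags, and their difference is what the rule asked for.

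The median SD within groups was 0.173 (log2) for isolated promoters at least 60 bp wide and 0.224 for those at most 10 bp wide. Other promoters of these widths had 0.173 and 0.239, without matching on level. The sharp ones differed in level, with medians of 30.6 CPM for isolated and 2.95 CPM for other promoters. Among sharp promoters at 100 CPM and over, the median SD was 0.214 for isolated and 0.185 for other promoters. The widest, at 171 bp, lay on the plus strand of chromosome 6 at 90319480 to 90319651 and had 9.79 ± 0.546 and 8.44 ± 0.868 CPM (SD, 3 libraries each). The next, at 150 bp, lay on the same strand and chromosome at 40421360 to 40421510 and had 220.2, 205 and 216 CPM, then 243, 234 and 245 CPM in the double mutant. Its groups did not overlap, yet its difference of 0.17 did not pass the test (limma adjusted p = 0.23).

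The next in width, 140 bp on the minus strand of chromosome 17 at 64681157 to 64681297, had 22.8 ± 1.71 CPM in the ITD group, 29.4 ± 2.70 CPM in the double mutant, and no call (limma adjusted p = 0.055). In all, 65 of 278 broad isolated promoters were called (23.4%, 29 higher and 36 lower) and 49 of 221 sharp ones (22.2%, 33 higher and 16 lower). Among other promoters the shares were 24.8% (573 higher and 369 lower) for broad and 22.9% (158 higher and 127 lower) for sharp ones. These contrasts were not tested.

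The most isolated promoter was also among the sharpest, at 1 bp. It lay on the minus strand of chromosome 1 at 113777911 to 113777912, with 5084665 and 6429828 bp to its kept neighbours. Its levels were 85.8, 95.2 and 85.4 CPM in the ITD group and 98.9, 75.5 and 88.1 CPM in the double mutant, which overlapped. The minus-strand peak of chromosome 3, 45580133 to 45580141, 4033542 bp from its nearest kept neighbour, had 8.08 ± 0.684 and 10.2 ± 2.03 CPM, with overlap too.

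The one on chromosome X (plus strand, 23270169 to 23270257) lay 2630981 and 10158546 bp from its kept neighbours. It fell from 10.8, 8.33 and 9.91 CPM to 4.61, 2.79 and 5.34 CPM, a difference of -1.05 (SE 0.20, limma adjusted p = 0.0023). Its right neighbour was lower too, with a difference of -0.76 that passed the test. The left neighbour, the nearer one, went the other way, by 0.37, and did not pass.

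Where both were called, isolated promoters and their next kept promoters often moved the same way. Over all pairs, called or not, the agreement was weak and fell with the gap. Of 668 adjacent kept pairs within 1000 bp in which both were called, 647 (96.9%) had the same direction, and of 460 pairs at 10000 to 100000 bp 352 (76.5%). Of 145 such pairs of an isolated promoter and its next kept promoter, 103 (71.0%) did, with 32 of 46 at 100000 to 200000 bp, 36 of 50 at 200000 to 500000 bp and 35 of 49 beyond. Over all 1963 pairs with an isolated member 56.1% had differences of the same sign, beside 68.6% of the 7964 pairs within 1000 bp. By gap the share was 58.6% at 100000 to 200000 bp, 55.7% at 200000 to 500000 bp and 54.1% beyond. Pearson's r of the differences was 0.123 over the 1963 pairs and 0.586 over the 7964. These describe promoters of the same 6 libraries, which are not independent replicates.

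By chromosome, the median difference of isolated promoters had the sign of that of the others on 19 of 20 chromosomes, with chromosome 6 the exception (-0.030 and 0.013). With TMM scaling the sign of the isolated median turned on chromosome X only, from 0.043 to -0.013. On chromosome 9, 16 of 54 isolated promoters fell and 2 rose, with a median of -0.32, beside 288 falls and 35 rises of 1082 others with a median of -0.26. On chromosome 19, 12 of 32 rose and 2 fell, with a median of 0.23, beside 351 rises and 19 falls of 763 others with a median of 0.46. Chromosome 10 had 17 falls and 5 rises among its isolated promoters and 141 and 33 among 845 others. Chromosome 8 had 11 rises and 2 falls among its isolated promoters and 180 and 46 among 973 others. Over the 20 chromosomes Pearson's r of both medians was 0.916, as a description, since every point shares the same libraries. Isolated promoters made up 12.0% of the kept promoters of chromosome X, the highest share, and 2.70% of those of chromosome 11, the lowest.

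**Figure D5:**
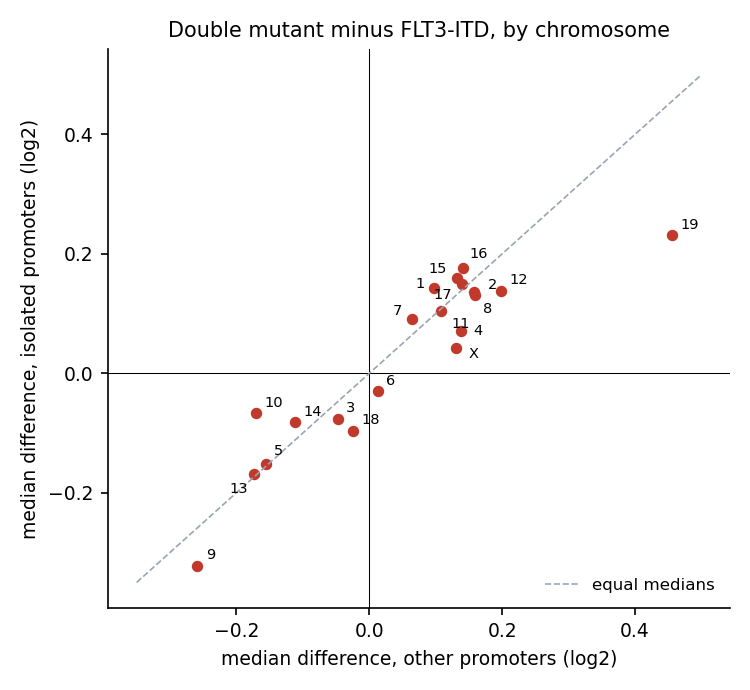
Median difference (double mutant minus ITD, log2(CPM + 1) scale) of isolated promoters against that of other promoters, with 1 labelled point per chromosome. Chromosome 9 lies lowest, at -0.32 for isolated promoters, and chromosome 19 highest, at 0.23.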

How the data were processed

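CAGE tags over 158966 peaks were measured in 6 libraries, 3 per group. The files hold CPM as the authors deposited it. The submitters' processing notes name TopHat2 2.0.14, edgeR 3.24.3 and the builds mm9 and hg19, with no role for any. Each value was a whole multiple of the worth of 1 tag within 0.01 (100% of values), so tags were recovered. The 19162 promoters with at least 1 CPM in 3 libraries were fitted together with limma 3.58.1 (R 4.3.3, trend and robust, two-sided) on log2(CPM + 1), with group as the only term and Benjamini-Hochberg adjustment over all of them, threshold 0.05. This scale understates changes of low promoters. Alternatives were TMM and RLE scaling, other filters and pseudocounts, edgeR 4.0.16 (4710 of 19162 called) and DESeq2 1.42.0 on recovered tags, a replicate block, and leaving out each library. The fit was tested on simulated data.

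Members and lists were chosen with earlier results of these data known. The named promoters are, by rule, the 8 most active members, the 8 largest rises and 8 largest falls that passed the test with a mean of at least 2 CPM and groups that do not overlap, the 3 widest, the 3 most isolated, and those with tags in 1 group only. Checks of sequence and of cell type markers were not made, as no mm9 genome was used here.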

Additional observations from a re-analysis of the deposited data

How the results depend on the processing

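Other scalings, tools, pseudocounts and filters that kept all members gave 267 to 324 changed isolated promoters in place of 311. Fitting only promoters that average 5 CPM or more left 833 members, of which 212 changed, 93 of them lower in place of 144, as fewer promoters were tested. Leaving out 1 library gave 226 to 375 changed, 116 to 187 higher and 110 to 188 lower (16.1% to 27.2% of all kept promoters changed). With the replicate block 279 changed (21.4% of all kept). Libraries of the same number deviated together with r of -0.0053, 0.019 and 0.193, so the numbers were not taken as pairs. No called member turned direction in these fits (0 of 311). The rule decides the members: there were 2060 at 50000 bp (median width 37 bp), 560 at 200000 bp (30 bp, median level 16.8 CPM), 901 with neighbours from 0.5 CPM (17.0 CPM) and 2434 with neighbours of the same strand only (38 bp, 11.7 CPM, SD 0.188). With members and neighbours at a mean of at least 5 CPM the medians were 47 bp, 25.3 CPM and SD 0.169, and the share called, minus that of others at the same levels, was -2.83 percentage points in place of 0.29. Of 451 refits of the 33 named promoters, 401 kept direction and call, 38 lost and 6 gained the call, and 6 reversed, at promoters that had not passed. With 1 library left out these ranged from -0.21 to 0.073 (chromosome 2, 40411202), -0.12 to 0.034 (chromosome 8, 105389768), -0.027 to 0.19 (chromosome 19, 28817068) and -0.12 to 0.073 (chromosome 1, 113777911). The cause was not tested.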
